A study of Homo sapiens with 12 samples.

Results

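IFI44L and IFI44 are neighbouring interferon-stimulated genes on the long arm of human chromosome 1. They were followed here through 12 total RNA sequencing libraries from head and neck squamous carcinoma cells treated with interferon alpha (IFNα). Both were selected on measured values, since IFI44L had the largest fold increase among the genes called higher at 200 ng/ml and IFI44 is its close relative and neighbour. They are 2 of the 60099 genes and, with 10 transcripts for IFI44L and 9 for IFI44, 19 of the 201521 transcripts in the deposited tables. The cells were Cal27 and HN30, established squamous carcinoma lines of the mouth and throat, kept for 24 h with no IFNα (control), with 20 ng/ml (low dose) or with 200 ng/ml (high dose). Groups A (control), B (20 ng/ml) and C (200 ng/ml) form one line set, here called A-C, and groups D (control), E (20 ng/ml) and F (200 ng/ml) form the other, called D-F, with 2 libraries in each group. The labels do not say which line set is Cal27 and which is HN30, so a difference between the sets is a difference between these 2 sets of libraries. Nothing in the labels says that the 2 libraries of a group came from separate cultures, so p-values measure the spread between these libraries, which may be technical. No genotype or other treatment was given for any group, and a cell line in culture holds no immune or stromal partner cells.

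Type I interferons such as IFNα bind a receptor made of IFNAR1 and IFNAR2, and the receptor-bound kinases JAK1 and TYK2 then activate the transcription factor complex ISGF3, which includes STAT2 and IRF9. ISGF3 binds interferon-stimulated response elements (ISREs) near the start of many antiviral genes. IFI44 encodes an interferon-induced protein first described as a protein of microtubular aggregates in hepatitis infection. IFI44L, IFI44-like, encodes a related protein, and its RNA is widely used as a member of interferon signatures in blood.

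The libraries held 12670755 to 16056734 estimated counts in the 4 controls, 11174407 to 14865450 at 20 ng/ml and 10517448 to 11854183 at 200 ng/ml. The squamous epithelial label was checked on 7 marker genes, whose summed level was 868 to 2651 TPM, an abundance scaled to transcript length and library size, over the 12 libraries. Of these 7, 2 keratins were called higher at 200 ng/ml, KRT14 (log2 2.30) and KRT6A (log2 1.21), and their part in the results below was not tested. KRT14 ranged from 0 to 49.2 TPM over the libraries, whereas no other marker of the 7 fell under 47.5 TPM (KRT6A). Of 4 leukocyte markers, 3 stayed under 1 TPM in every library and the summed level was 0.0425 to 2.33 TPM. A pair of endothelial markers summed to 0.1 to 21.7 TPM and 3 fibroblast markers to 4.25 to 14.7 TPM. Of the endothelial pair, CDH5 reached 21.7 TPM and PECAM1 at most 0.576 TPM. In bulk libraries such as these, fewer responding cells and less RNA per cell cannot be told apart.

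IFI44L (ENSG00000137959) lies on the plus strand of chromosome 1 at 78619922 to 78646145 (GRCh38), and IFI44 (ENSG00000137965) follows it on the same strand at 78649796 to 78664078, leaving 3650 bases between them. ISGF3 is known to bind the sequence GAAANNGAAA, read as TTTCNNTTTC on the other strand. For this reason, and because both genes rose at both doses, the sequences just before IFI44L-201 and before the first IFI44 transcript are printed. They were taken from RefSeq (GRCh38.p14), end at the base before the start of IFI44L-201 or of the first IFI44 transcript, read 5′ to 3′ on the plus strand, and carry every match to that motif in capitals.
IFI44L, chr1:78620198-78620402: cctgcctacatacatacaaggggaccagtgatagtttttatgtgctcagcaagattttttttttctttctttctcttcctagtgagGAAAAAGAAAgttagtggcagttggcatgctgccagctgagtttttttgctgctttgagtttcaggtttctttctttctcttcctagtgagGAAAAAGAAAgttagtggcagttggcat
IFI44, chr1:78649539-78649795: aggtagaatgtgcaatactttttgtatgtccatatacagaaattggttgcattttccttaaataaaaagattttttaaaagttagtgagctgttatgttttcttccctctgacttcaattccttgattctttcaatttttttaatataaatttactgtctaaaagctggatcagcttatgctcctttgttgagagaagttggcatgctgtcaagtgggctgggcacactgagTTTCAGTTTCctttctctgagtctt

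The IFI44L sequence held the motif at 2 places, 110 and 19 bases before IFI44L-201, inside a stretch of 53 bases that stood there as an exact repeat with its copies 91 bases apart. The IFI44 sequence held the motif once, on the other strand, 16 bases before the first transcript, IFI44-205. The main coding transcript, IFI44-201, starts further on, at 78649831. Over RefSeq promoter windows of 300 bases, searched on both strands, 4.38% of 27305 genes had at least 1 match and 0.311% had 2 or more. Of 30 interferon effector genes, 24 had a promoter window of that kind and 18 of these (75%) held a match. A match is a description of the letters in the window and was not tested as a binding site.

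IFI44L was nearly absent from the untreated D-F libraries, low in the untreated A-C libraries, and between 114.4 and 194.5 TPM in all 8 treated libraries. In the controls its level was 4.63 and 3.09 TPM in A1 and A2 and 0.157 and 0.855 TPM in D1 and D2, from 66, 100, 8 and 17 estimated counts. At 20 ng/ml it was 125.3 and 114.4 TPM in B1 and B2 and 142.6 and 164.8 TPM in E1 and E2. At 200 ng/ml it was 142.1 and 152.5 TPM in C1 and C2 and 194.5 and 177 TPM in F1 and F2. No treated library came near a control, and groups C and E overlapped while the other groups stood in the order D, A, B, then C with E, then F. The group means rose from 2.18 ± 2.05 TPM in the controls to 136.8 ± 22.0 TPM at 20 ng/ml and 166.5 ± 23.7 TPM at 200 ng/ml (SD, n = 4 each). The A1 and A2 values show that TPM and counts did not always order libraries alike, since A2 had more counts and the lower TPM.

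IFI44 was already expressed without IFNα and rose less steeply. Its control levels were 58.8 and 60.1 TPM in A1 and A2 and 47.2 and 41.1 TPM in D1 and D2. At 20 ng/ml the libraries held 331.7 and 315 TPM (B) and 423 and 401 TPM (E). At 200 ng/ml they held 397 and 375.4 TPM (C) and 505 and 500.9 TPM (F). The 6 groups did not overlap and stood in the order D, A, B, C, E, F, so the line set with the lower untreated level had the higher treated level on this scale. The means over both line sets were 51.8 ± 9.18, 367.7 ± 52.4 and 444.6 ± 68.0 TPM at 0, 20 and 200 ng/ml (SD, n = 4 each).

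**Figure D1:**
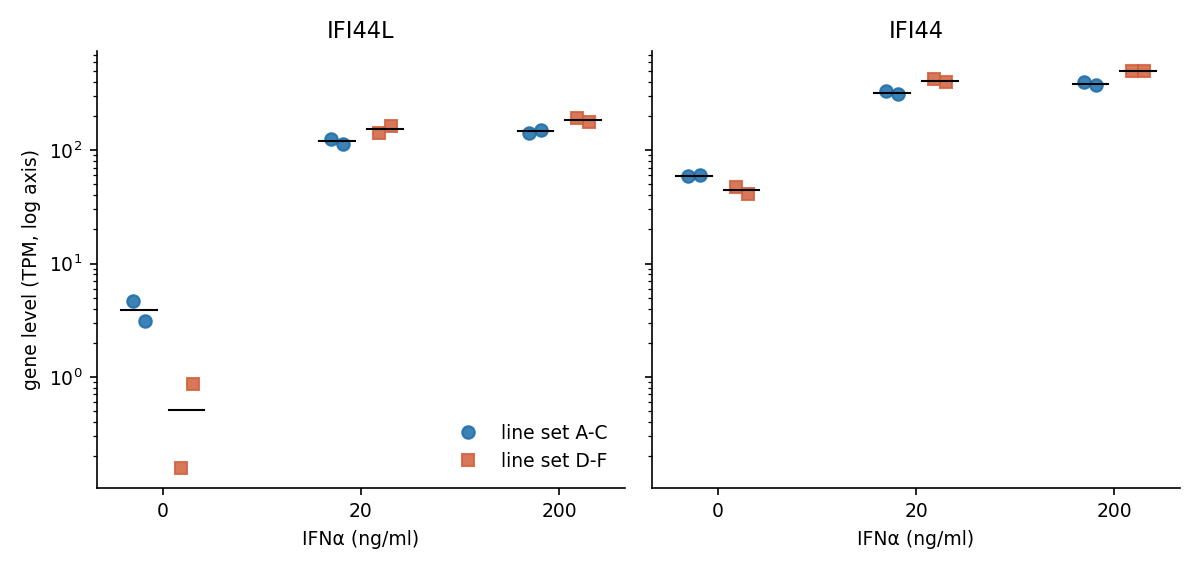
Gene level in TPM on a log axis for IFI44L (left) and IFI44 (right) at 0, 20 and 200 ng/ml IFNα. Each point is 1 library, marked by line set, and each black line is the mean of the 2 libraries of a group. IFI44L spreads from 0.157 to 4.63 TPM in the controls and from 114.4 to 194.5 TPM in the treated libraries, while the IFI44 controls lie between 41.1 and 60.1 TPM.

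The size of the increase over control chose these genes, so it is given as a description with no test. In edgeR's quasi-likelihood fit of the estimated counts, averaged over the line sets, IFI44L was 131.5-fold higher at 200 ng/ml (log2 7.04, SE 0.13) and 110.3-fold higher at 20 ng/ml (log2 6.79, SE 0.13). IFI44 was 7.67-fold higher at 200 ng/ml (log2 2.94, SE 0.07) and 6.38-fold higher at 20 ng/ml. A gene is called here where its difference reached 2-fold and its p, adjusted over all genes tested by the Benjamini-Hochberg method, was at most 0.05. Of the 19944 genes tested, 1.58% were called higher and 0.552% lower at 200 ng/ml, and 0.963% were called higher at 20 ng/ml. These shares are background only, as the members were taken from the genes that rose. From 20 to 200 ng/ml the log2 difference was 0.25 (SE 0.09) for IFI44L and 0.27 (SE 0.06) for IFI44, which is small beside the step from control.

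IFI44L ranked 1st of the 316 genes called higher at 200 ng/ml and 2nd of 192 at 20 ng/ml, and IFI44 ranked 73rd and 57th. The next genes below IFI44L at 200 ng/ml were MX2, an antiviral GTPase, at log2 6.40, and EXOC3L1, an exocyst-related gene with 0 counts in every control, whose fitted value depends on the fit's prior count. Above IFI44L by fitted value alone stood TRIM39-RPP21, a read-through gene, at log2 8.34 (SE 3.08, adjusted p = 0.165), and an assembled locus with no gene name, and neither was called. The ranks were not the same within the line sets. IFI44L was 11th of 281 genes called higher in A-C and 3rd of 333 in D-F at 200 ng/ml.

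The line sets differed in IFI44L before treatment, and no difference was called between the treated levels on counts after edgeR's TMM scaling between libraries. IFI44L was lower in untreated D-F than in untreated A-C by a log2 difference of -2.84 (SE 0.23, adjusted p = 9.40e-06). Without D1 it was -2.42 and without D2 -3.46, so each of these low libraries moved its size. The same control libraries entered the fold that chose IFI44L, so this p-value is not free of that choice. Among all genes, 26.6% were called different in one direction or the other between the untreated line sets, so a difference of this kind was common. At 20 ng/ml the D-F minus A-C difference was 0.05 (SE 0.13, 95% interval -0.25 to 0.34, adjusted p = 0.789), and at 200 ng/ml it was -0.01 (SE 0.13, 95% interval -0.31 to 0.28, adjusted p = 0.952). The shares of genes called different between the line sets were 26.2% at 20 ng/ml and 28.4% at 200 ng/ml. The TMM factors were 0.931 to 0.981 in A-C and 1.03 to 1.06 in D-F. Scaled to the library total alone (CPM), IFI44L was higher in treated D-F. At 20 ng/ml it was 255.4 to 263.8 CPM in D-F and 225.3 to 238.5 in A-C. At 200 ng/ml it was 289.7 to 315.1 CPM in D-F and 269.3 to 276.2 in A-C.

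The rise over control differed between the line sets. For IFI44L it was 49.4-fold in A-C and 350.5-fold in D-F at 200 ng/ml, and 40.5-fold and 300.3-fold at 20 ng/ml. The interaction, the log2 rise in D-F minus that in A-C, was 2.83 at 200 ng/ml (SE 0.27, 95% interval 2.23 to 3.43, adjusted p = 0.00241) and 2.89 at 20 ng/ml (SE 0.27, 95% interval 2.29 to 3.49, adjusted p = 0.00261). Of all genes, 0.998% were called for this interaction at 200 ng/ml and 0.231% at 20 ng/ml. A larger rise in D-F was not particular to IFI44L, since the genes most like it, given below, also had one. Both doses were measured against the same controls, so the interactions share the low untreated value of D-F, which rested on 8 and 17 counts. Those controls also entered the fold that chose IFI44L, so the p-values of the interactions are not free of that choice. Without D1 the interactions were 2.39 at 200 ng/ml and 2.44 at 20 ng/ml, and without D2 3.45 and 3.51. On log2(TPM + 0.1) with limma the interactions were 3.30 and 3.33, with adjusted p = 0.0701 and 0.147.

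IFI44 moved the same way by a smaller amount, with no call. Its untreated level was lower in D-F by log2 -0.51 (SE 0.10, adjusted p = 0.00175), which is under 2-fold. The interaction was 0.64 at 200 ng/ml (SE 0.13, 95% interval 0.35 to 0.94, adjusted p = 0.0457), also under 2-fold, and 0.72 at 20 ng/ml (95% interval 0.42 to 1.02, adjusted p = 0.0683). In the treated libraries the D-F minus A-C difference in counts was 0.21 at 20 ng/ml (adjusted p = 0.0927) and 0.13 at 200 ng/ml (95% interval -0.07 to 0.34, adjusted p = 0.261). On log2(TPM + 0.1) the same differences were 0.35 (adjusted p = 0.0119) and 0.38 (adjusted p = 0.00694) for IFI44, and 0.36 (adjusted p = 0.590) and 0.33 (adjusted p = 0.600) for IFI44L. The deposited TPM thus placed the treated D-F libraries above A-C for both genes, by the limma test for IFI44 alone. CPM without TMM scaling did so too, with IFI44 means of 313 (D-F) and 250.3 (A-C) at 20 ng/ml. At 200 ng/ml these means were 366.2 and 298.8 CPM.

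**Figure D2:**
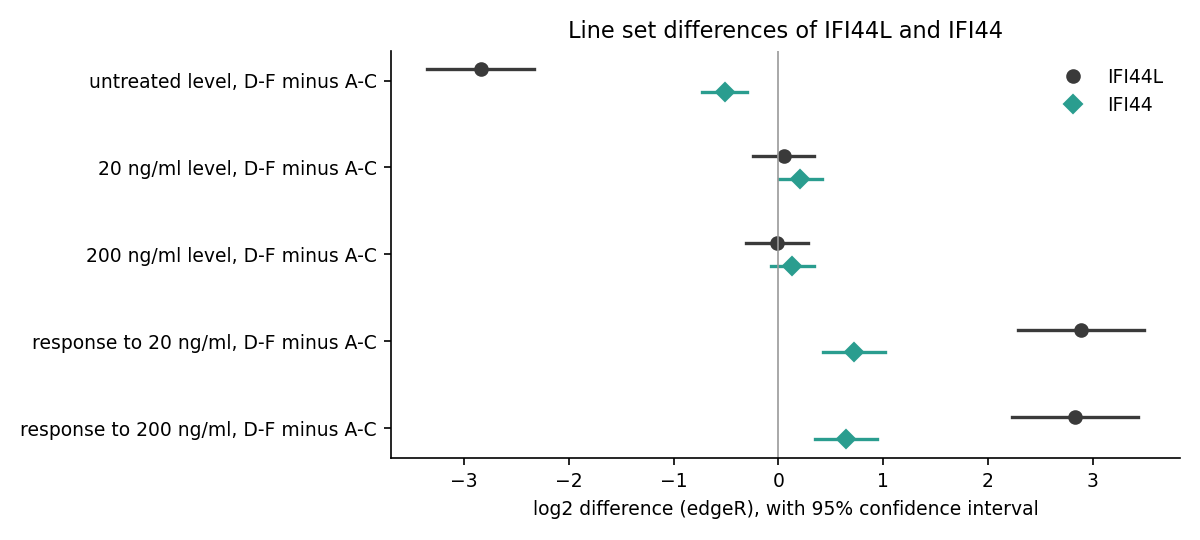
Log2 difference D-F minus A-C for IFI44L and IFI44, as the untreated level, the levels at 20 and 200 ng/ml, and the rise over control at each dose. Points are edgeR estimates from 12 libraries and bars are 95% intervals. For IFI44L the untreated level lies at -2.84 and the rises at 2.89 and 2.83, with the treated levels near 0, and all IFI44 values lie between -0.51 and 0.72.

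The 20 ng/ml libraries lay closer to the 200 ng/ml libraries than to the controls. On the log2 scale IFI44L at 20 ng/ml was 3.27 (SE 0.09) above the midpoint between control and 200 ng/ml, and IFI44 was 1.20 (SE 0.05) above its own. These distances are a description with no test, since they use the control and 200 ng/ml libraries that chose the genes and follow from the large rise and the small step between the doses. Of all genes, 0.717% lay off their midpoint at an adjusted p of at most 0.05.

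The level of IFI44L relative to IFI44 was low and unequal in the controls and nearly constant in the treated libraries. In TPM, which is per length, IFI44L was 7.87% and 5.14% of IFI44 in A1 and A2 and 0.332% and 2.08% in D1 and D2. In the treated libraries it lay between 33.7% (E1) and 41.1% (E2). With 0.1 TPM added to both genes, the mean log2 ratio over the 8 treated libraries was -1.42 ± 0.10 (SD), and the line set means were -1.41 ± 0.08 (A-C) and -1.43 ± 0.13 (D-F, n = 4 each). With libraries exchanged between line sets within a dose, the D-F minus A-C difference over all 3 doses was -0.86, with exact two-sided permutation p = 0.130 and p = 0.556 adjusted over 5 exact tests. The smallest p this design allows is 0.00926. The size rested on the added value, with -0.98 for 0.01 TPM and -0.44 for 1 TPM, each with exact permutation p = 0.130. Taken from CPM (counts scaled to library size) in place of TPM, the difference was again -0.86 with exact permutation p = 0.00926. The controls in these ratios also entered the fold that chose IFI44L, so these p-values are not free of that choice.

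IFI44L RNA was divided over several annotated transcripts, and the ones shown here hold most of its counts. IFI44L-201 (ENST00000370751) is the coding transcript with 9 exons and 5874 bases, and IFI44L-209 (ENST00000486882) is annotated as a retained intron transcript of 7 exons and 5152 bases at 78625670 to 78642799. IFI44L-209 starts within the first intron of IFI44L-201. Both transcripts hold the bases of exon 2 of IFI44L-201, and those that follow its end at 78628393 differ. Below, the last 20 bases of that exon are in lower case and the next 40 bases of each transcript are in capitals, from GENCODE v29 transcripts.
IFI44L-201: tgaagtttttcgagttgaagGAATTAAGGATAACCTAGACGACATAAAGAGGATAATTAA
IFI44L-209: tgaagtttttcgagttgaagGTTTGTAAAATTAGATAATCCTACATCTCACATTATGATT

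IFI44L-201 joins the next exon at 78628951, whereas IFI44L-209 reads on through all 557 bases of the second intron. IFI44L-209 also holds 2236 of the 7334 bases of the first intron. The primer pair that the study listed for IFI44L-209 is printed because it lies in that part of the first intron.
Forward primer: aaggtttccaaggtgctctcc
Reverse primer: catttgggagcacatttctga
Of the 19 transcripts of both genes, IFI44L-209 alone matched both primers, and the pair was listed for that transcript. The check covered annotated transcripts only, and unspliced IFI44L RNA would hold the same product. The product was 153 bases, from 78626989 to 78627141. A share of 54.2% of the bases of IFI44L-209 and 57% of those of IFI44L-201 lay in no other transcript of the 2 genes. Total RNA may hold unspliced IFI44L RNA, whose intron reads could be counted as IFI44L-209. Its part in the counts of IFI44L-209 and in the noncoding shares below was not tested.

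IFI44L-209 was counted in treated libraries only. It had 0 of the 191 estimated IFI44L counts of the 4 controls, which allows a share of up to 1.57%, for counting error only. At 20 ng/ml it had 960, 1764, 883 and 1097 counts in B1, B2, E1 and E2, and at 200 ng/ml 1140, 1433, 1325 and 1206 counts in C1, C2, F1 and F2. The lowest treated library was thus far above every control, and treated levels spanned 24.2 to 44.9 TPM. Against a floor of 3 counts per control library, the increase at 200 ng/ml was at least 549-fold for A-C and at least 531-fold for D-F. At 20 ng/ml it was at least 461-fold and 414-fold. It made up 30.9% to 36.4% of IFI44L counts in the 6 treated libraries other than B2 and C2, where it made up 52.7% and 50.6%.

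The coding transcript IFI44L-201 had 39 and 85 counts in A1 and A2 and 8 and 13 in D1 and D2. It had 1609, 1160, 1554 and 1541 counts at 20 ng/ml and 1695, 970, 1680 and 1674 counts at 200 ng/ml in the same library order as above. The lowest treated values were those of B2 and C2, whose IFI44L-201 shares were 34.6% and 34.3%. An assembled locus without a gene name at 78643081 to 78646145, inside the last exon of IFI44L-201, had 138 counts in B2, 270 in C2 and 0 in the other 10 libraries. Its part in the shares of B2 and C2 was not tested.

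**Figure D3:**
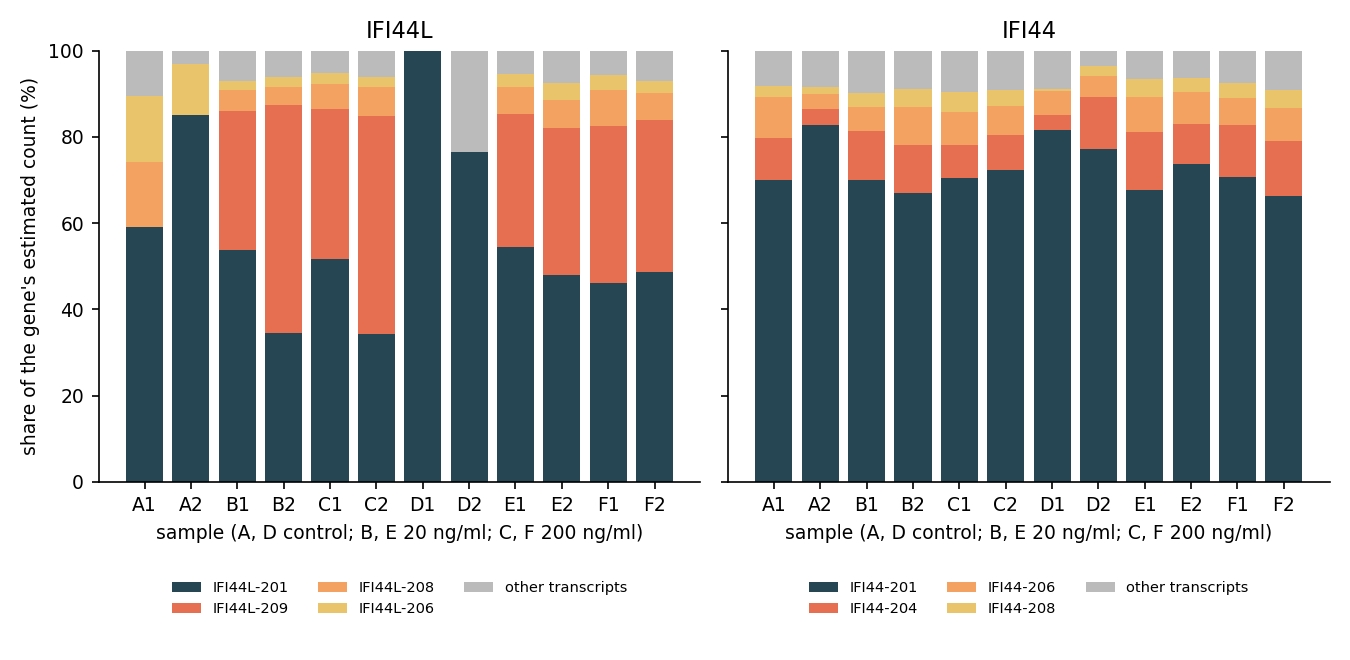
Share of each gene's estimated count by transcript, 1 stacked bar per library, for IFI44L (IFI44L-201, IFI44L-209, IFI44L-208, IFI44L-206 and the rest) and IFI44 (IFI44-201, IFI44-204, IFI44-206, IFI44-208 and the rest). IFI44L-209 takes no share in the controls and 30.9% to 52.7% in the treated libraries.

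Counts of 18 of the 19 transcripts were high enough for the test, and those of IFI44L-203, at most 2 in a library, were not. At 200 ng/ml 11 of these 18 were called higher, 6 of IFI44L and 5 of IFI44, and at 20 ng/ml 9 were, 5 and 4. Of all 75876 transcripts tested, 0.343% were called higher at 200 ng/ml and 0.24% at 20 ng/ml. The count over 18 is a description, since the same contrast chose the genes and a transcript silent in controls passes the filter only through treated libraries. IFI44L-201 had a log2 difference of 6.19 (SE 0.34) at 200 ng/ml. IFI44-201 (ENST00000370747), the main coding transcript of IFI44, had one of 2.72 (SE 0.13), and IFI44-208 one of 4.11. IFI44-205 had a log2 difference of -0.06 at 200 ng/ml and was the only 1 of the 18 with a negative estimate there.

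IFI44-201 carried most IFI44 RNA in every group. It had 431, 702, 484 and 405 counts in A1, A2, D1 and D2, then 2294, 2377, 2381 and 2801 at 20 ng/ml and 2575, 2204, 3073 and 2798 at 200 ng/ml. Treated and control libraries did not overlap. Its share of IFI44 TPM was 65.1% in the controls and 53.3% and 53.4% at 20 and 200 ng/ml. No base of IFI44-201 was absent from all other transcripts of the gene, so its counts rest on how StringTie divided shared reads.

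Between the line sets, the untreated level of IFI44L-201 was lower in D-F by log2 -2.63 (SE 0.42, adjusted p = 0.0167). IFI44L-206 was also called lower there (adjusted p = 0.00395), with 10 and 12 counts in A1 and A2 and 0 in D1 and D2. The other 16 member transcripts were not called, and 3.63% of all transcripts were called in one direction or the other. The interaction at 200 ng/ml gave 0 calls by edgeR among the 18 transcripts, 3 of which had an unadjusted p of at most 0.05, and 0.0514% of all transcripts were called. For IFI44L-201 that interaction was 2.78 (SE 0.56, adjusted p = 0.250). For IFI44L-206 it was 6.71 (SE 0.69, adjusted p = 0.0598), the largest of the 18. IFI44L-205, IFI44L-207 and IFI44L-209 had 0 counts in every control, so neither line set difference could be estimated for them. As for the gene, the controls used here also entered the fold that chose IFI44L.

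Noncoding transcripts, those annotated as retained intron or processed transcript, held most of IFI44L TPM in the treated libraries and a smaller part of IFI44 TPM. Over the 8 treated libraries they held 71.4% ± 4.19 of IFI44L TPM, from 65.1% to 75.6%, and 37.5% ± 2.91 of IFI44 TPM, from 33.0% to 40.9% (SD, n = 8). Of estimated counts, which weight long transcripts more, they held 44.3% to 63.2% of IFI44L and 22.4% to 29.1% of IFI44 in the treated libraries, with the lowest IFI44L values in B1 (44.3%), E1 (45.0%) and C1 (46.6%). In the controls, with few IFI44L counts, they held 74.0%, 53.7%, 0% and 73.3% of IFI44L TPM in A1, A2, D1 and D2, and 36.4%, 15%, 0% and 23.5% of its counts. Of these transcripts, IFI44L-208 held on average 18.9% of IFI44L TPM at 20 ng/ml and 22.6% at 200 ng/ml. No base of IFI44L-208 was absent from all other transcripts of the 2 genes, so its share rests on how StringTie divided shared reads. The noncoding share of IFI44L TPM differed by 1.55 percentage points between 200 and 20 ng/ml (exact two-sided permutation p = 0.611, adjusted p = 0.764) and by 4.11 points between D-F and A-C (exact permutation p = 0.222, adjusted p = 0.556). For IFI44 the same differences were -1.33 points (exact permutation p = 0.611, adjusted p = 0.764) and 0.691 points (exact permutation p = 0.833, adjusted p = 0.833). These designs allow no p under 0.0556.

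The other genes of the pathway were read from lists of known members. Of the receptor and ISGF3 genes, STAT2 (log2 1.80 at 200 ng/ml) and IRF9 (log2 2.69) were called higher at both doses. The receptor chains IFNAR1 (log2 -0.11) and IFNAR2 (log2 0.10) and the kinases JAK1 and TYK2 (log2 0.02 each) were not called. The median log2 difference over all genes tested was -0.01 at 200 ng/ml. Of 6 negative regulators and modifiers, 2 were called higher at both doses. These were USP18, which removes ISG15 from proteins and blocks the receptor, at log2 4.16, and ISG15, the ubiquitin-like modifier, at 4.20. Of 7 interferon-induced GTPases 6 were called higher at 200 ng/ml and 5 at 20 ng/ml, with a median log2 of 2.68 at 200 ng/ml and with MX1 at 4.57. All 30 other interferon effectors on the list were called higher at both doses, with medians of 2.97 and 2.78. OAS2, a sensor that makes the activator of RNase L, had log2 5.46 and RSAD2, the antiviral enzyme viperin, had 5.30. IFI44 lay in the middle of this list, with 16 of the 30 effectors above it.

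A further list held FKBP5, an immunophilin and cochaperone, and IκB kinase genes, since IFI44L and IFI44 have been linked to these proteins. Of its 6 genes 0 were called by edgeR at either dose. TBK1 (log2 0.43, adjusted p = 0.00533) and IKBKE (log2 0.46, adjusted p = 0.00926), kinases of the antiviral response, passed the adjusted p at 200 ng/ml but stayed under 2-fold, and FKBP5 had log2 1.05 (adjusted p = 0.0612). In mean TPM among 39 effector genes, the GTPases and both members included, IFI44L stood 38th in the controls and 20th at both doses, whereas IFI44 stood 6th, 10th and 9th at 0, 20 and 200 ng/ml. IFI44L thus moved from near the lowest level to the middle of the effectors, and IFI44 stayed among the higher ones.

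The genes whose log2 CPM followed IFI44L most closely over the 12 libraries were MX1 (Pearson r = 0.997), IFI6 (0.993), USP18 (0.993), ISG15 (0.992) and OAS1 (0.991). For IFI44 they included OAS1 (0.999), OAS3 (0.999), PARP14 (0.997) and IFIT1 (0.996). IFI44 itself stood 13th in the order for IFI44L at 0.986. These values describe 12 points that share dose, line set and depth, and most of each is the step from control to treated.

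Within 1 Mb of either member the tables list 33 other genes and loci, of which 11 passed the filter on low counts and 1 was called, at both doses. That gene was NEXN, which encodes an actin-binding protein of muscle and lies 676027 bases before IFI44L. NEXN was higher by log2 2.28 (SE 0.26) at 200 ng/ml and 1.45 at 20 ng/ml, with 11 to 316 counts per library, and was named after its values were seen. Apart from the assembled locus inside the last exon of IFI44L, the tested neighbours all lay on the same side, and the nearest, DNAJB4, was 601958 bases before IFI44L with a log2 difference of 0.32 at 200 ng/ml (adjusted p = 0.331). The genes closer to the pair had too few counts for a test.

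**Figure D4:**
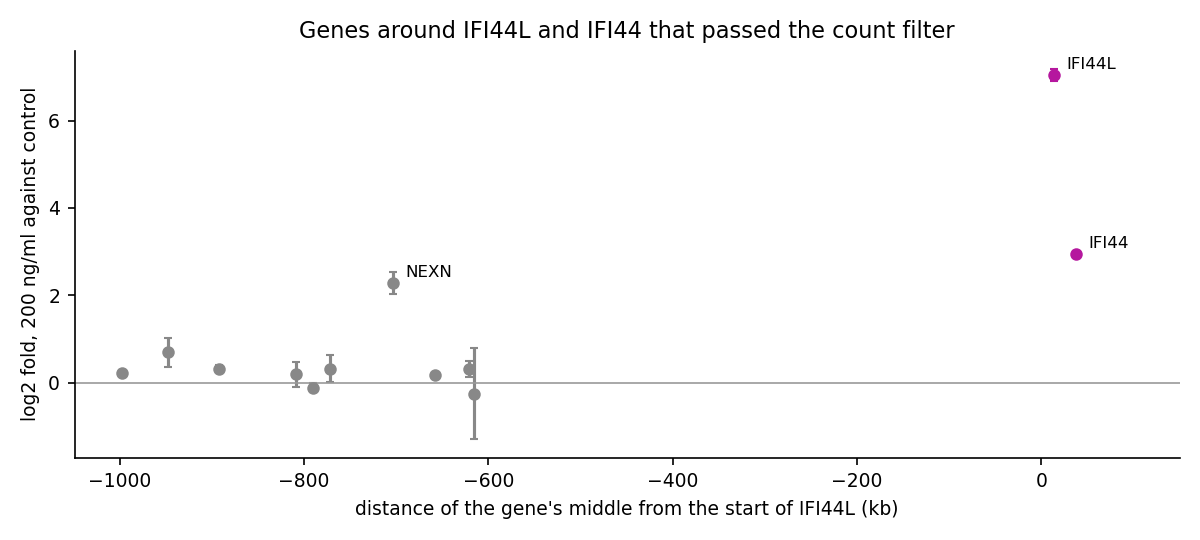
Log2 difference at 200 ng/ml against control (edgeR estimate, bars are SE) for the tested genes within 1 Mb, plotted by distance in kb from the start of IFI44L. IFI44L (7.04), IFI44 (2.94) and NEXN (2.28) are the only ones called higher, and the assembled locus inside the last exon of IFI44L is left out.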

How the data were processed

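IFI44L, IFI44 and the gene lists were chosen with earlier results of these data known. Total RNA was depleted of ribosomal RNA and sequenced strand-specifically. Per the submitters' processing notes the authors used Trimmomatic 0.36, HISAT2 2.1.0, StringTie 1.3.3b and GRCh38.p10. The deposited tables hold estimated counts, as whole numbers, and TPM for each gene and transcript, and the TPM was computed by the authors. A deposited FPKM column was not used, and neither were any comparison values. StringTie divides reads shared by overlapping transcripts, so transcript counts are estimates, and reads of near-identical stretches are uncertain.

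Estimated counts were fitted with edgeR 4.0.16 in R 4.3.3 (TMM scaling, filterByExpr, quasi-likelihood test) in one model of the 6 groups, on 19944 genes and 75876 transcripts. A call needed a 2-fold difference and a Benjamini-Hochberg adjusted p of at most 0.05, or that adjusted p alone for the midpoint. Ratios of TPM (0.1 added) and shares were tested by exact permutation (NumPy 2.4.6). Members of the lists were named by call and size of change. Likeness was Pearson's r on edgeR's log2 CPM, with TMM-scaled library totals and a prior count of 2. Alternatives were DESeq2 1.42.0, limma 3.58.1 on log2(TPM + 0.1), another scaling, no filter, pairs of groups alone, a replicate block and leaving out each library. Those for the line set difference at each dose were added after seeing the data. Promoters came from RefSeq (GRCh38.p14) and transcripts from GENCODE v29. The model was tested on simulated data. One gene of the pathway is not reported here. Totals of 10517448 to 16056734 counts per library limit the precision of low values, and floors (3 counts) and shares allowed by 0 counts cover counting error only.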

Additional observations from a re-analysis of the deposited data

Results flagged for a closer look

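In 7 of the 68 sets of 4 libraries tested, 1 library stood apart from the other 3 by Dixon's criterion at 95%, where chance gives about 1 in 20. Each set holds 2 libraries of each line set, and in 4 of the 7 the other 3 libraries were all at 0, where any value above 0 stands apart, so the number of such sets is no finding. The values are in TPM. IFI44-205 was 0.65 in E1 at 20 ng/ml (1.67 to 1.82 in the others), and IFI44-209 was 18.14 in C1 at 200 ng/ml (11.73 to 12.4 in the others). IFI44L-203 was 0.25 in B2 at 20 ng/ml and 0.04 in C1 at 200 ng/ml. In the controls, A1 alone had IFI44L-204 (0.65), IFI44L-208 (1.44) and IFI44L-202 (0.37), each listed at 0 in the other 3 libraries.

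The rise of the IFI44L gene over control differed between the line sets by an interaction of log2 2.83 at 200 ng/ml and 2.89 at 20 ng/ml (edgeR, adjusted p = 0.00241 and 0.00261), higher in D-F at both doses. Both values use the same 4 control libraries, which also entered the fold that chose IFI44L.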

How the results depend on the processing

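Of the recomputed values, 276 kept their direction and side of the call (2-fold and adjusted p together) or, as counts, lay within 1.5 times the reported one, 12 counts moved further, 12 values changed sign, 2 lost a call and 2 passed a threshold newly. The IFI44L untreated line set difference was -3.46 to -2.42 without 1 library. The interaction for IFI44L was 3.30 at 200 ng/ml (adjusted p = 0.0701) and 3.33 at 20 ng/ml (adjusted p = 0.147) by limma on log2(TPM + 0.1), both no longer called, and 2.39 to 3.45 and 2.44 to 3.51 without 1 library. Transcripts of the pair called higher at 200 and 20 ng/ml numbered 17 and 16 by DESeq2, 4 and 3 with a replicate block, 4 and 4 with only the compared groups, and 7 to 11 and 5 to 9 without 1 library. The fewest at 200 ng/ml came without F2, and the fewest at 20 ng/ml without B2, E1, E2, F1 or F2. The IFI44L to IFI44 ratio difference was -0.86 (exact permutation p = 0.00926) from CPM and -1.21 to -0.51 without 1 library, with the lowest exact permutation p = 0.0278 without E2. The noncoding share of IFI44L differed between line sets by -4.36 points of counts (exact permutation p = 0.556), opposite to TPM. Without 1 library it was 2.12 to 6.10 points, the difference between doses was -0.437 to 3.55, and for IFI44 these were -0.699 to 2.08 and -2.72 to 0.0566. The IFI44L line set difference at 200 ng/ml was 0.0052 with no filter, 0.33 by limma and -0.073 to 0.029 without 1 library. The adjusted p of the IFI44 interaction at 200 ng/ml was 0.0457 in the main analysis, 0.0942 with the block, 0.0503 with DESeq2's scaling, 0.0675 with no filter, 0.00508 by DESeq2 and 0.0549 to 0.141 without 1 library. The cause of these changes was not tested. Over all genes tested, libraries with the same number did not deviate together (correlations -0.031 to 0.048). These correlations do not settle whether single genes did. B2 and C2 stood apart together in the IFI44L-209 share (52.7% and 50.6%) and in the assembled locus inside IFI44L (138 and 270 counts). Whether libraries with the same number shared a preparation was not tested. With the replicate block the IFI44L interactions were 2.83 (adjusted p = 0.0162) and 2.89 (adjusted p = 0.0239), and genes called for the interaction at 200 ng/ml went from 199 to 69. The IFI44L control counts of 8 and 17 in D-F limit the precision of its untreated level and folds.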
